A study of Rattus norvegicus with 20 samples.

Results

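The genes described here encode the subunits of the proteasome. They were taken as every gene on the array whose symbol begins with Psma, Psmb, Psmc, Psmd, Psme, Psmf or Psmg, with 1 probe kept per gene, the one of highest mean signal. The rule found 39 genes, measured by 45 probes, among 37242 genes and unnamed probes on the array. All 39 were among the 31072 features that passed a filter on dim probes, 13510 of which carried a gene name. No symbol beginning with Psmf or Psmg was found, and Psmb10, which the rule names among the inducible subunits, was present only under its accession. One member, Psmc3ip, encodes a protein that was named for binding Psmc3 and is not a subunit. RefSeq lists Psma3l as another name of Psma3, so these 2 probes are a second reading of 1 gene or of near-identical copies.

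The proteasome is a barrel-shaped protease that breaks down proteins tagged with ubiquitin. Its 20S core is built from rings of alpha subunits, which form the gate, and rings of beta subunits, some of which cut the substrate. A 19S cap at the end of the core recognises the tagged protein, removes the tag, unfolds the chain with a ring of ATPases and feeds it in. Interferon-driven cells exchange the catalytic beta subunits for the inducible Psmb8, Psmb9 and Psmb10 and add the activator Psme1 with Psme2, which changes the peptides made for display on MHC class I molecules. In neurons the proteasome also limits the amount of synaptic and axonal proteins.

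The animals were 10 rats aged 2 years that had a cortical stroke. A first cholera toxin B tracer was put into the cortex beside the infarct, and a second tracer of another colour into the same site 7 days later in one cohort (day 7) or 21 days later in a separate cohort (day 21). Laser capture then gave, for each rat, about 300 neurons called sprouting in the labels and about 300 called non-sprouting, and their RNA was amplified in 2 rounds. Each array compared these 2 RNAs of a rat in a red and a green channel, once with the sprouting neurons in red (the forward array) and again with the dyes exchanged. Each rat therefore served as its own control, and both arrays of a rat counted as 1 replicate, giving 5 animals per day. The labels name no strain, sex, genotype or unlesioned control, and both pools of every rat came from cortex after stroke. Values are log2 ratios of sprouting over non-sprouting neurons, so 0.5 is a 1.41-fold difference, and errors are SDs over animals unless an SE or an interval is named. In pools of captured cells, fewer cells of a type and less RNA per cell cannot be told apart.

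Signals of the proteasome genes were well measured. Each of the 39 genes was well above background in at least 38 of the 40 channels, and 26 were above it in all 40. The lowest count was 18 of the 20 sprouting channels, for Psmb8 and Psmb9. In sprouting pools at day 7 the mean log2 signal ran from 7.37 for Psmb8 to 14.7 for Psmc5. A spot was saturated on 3 arrays for Psmc5 and on 1 array each for Psmb4 and Psmc2. Across all gene probes the share above background ran from 20.6% to 95.4% by channel and was lowest in day 21 replicate 4. Markers of cell types were also read, from those that passed the filter on dim probes. They were 10 of 12 listed for neurons, 15 of 15 for microglia and macrophages, 9 of 9 for astrocytes and 10 of 10 for oligodendrocytes. For endothelium they were 8 of 9 and for blood cells 7 of 9. None was below background on every array of a day, an outcome that the filter largely fixed in advance. The summed log2 signal of the neuron markers was 15.8 to 16 in sprouting and 15.8 to 16.1 in non-sprouting pools at day 7, and that of the oligodendrocyte markers was 14.9 to 15.8 and 15.2 to 15.6. The pools thus held measurable RNA of glial and blood genes beside that of neurons.

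Promoter sequence from RefSeq (GRCr8) is shown first, because the inducible and the constitutive catalytic subunits are set side by side and the inducible ones are known for their interferon response. The table held 35 of the 39 members, and Psma3l, Psma7, Psmd12 and Psmd14 had no entry. The 250 bases before the start were searched on both strands for an interferon-stimulated response element (ISRE, a pair of GAAA with any 2 bases between), a gamma-activated site (GAS, TTCNNNGAA), an antioxidant response element (ARE, TGACNNNGC) and a CCAAT box (CCAAT). Matches are in capitals. The first 2 sequences carry ISRE matches. Tap1, a neighbour of Psmb9 that encodes a peptide transporter, is read towards its own start, and its window lies in the 408 bases between both gene models, with no protein-coding gene wholly between them. Tap1 is not a proteasome gene, and Psmb10 is the inducible subunit that lay outside the symbol rule.
Tap1, chr20:4668544-4668793, minus strand: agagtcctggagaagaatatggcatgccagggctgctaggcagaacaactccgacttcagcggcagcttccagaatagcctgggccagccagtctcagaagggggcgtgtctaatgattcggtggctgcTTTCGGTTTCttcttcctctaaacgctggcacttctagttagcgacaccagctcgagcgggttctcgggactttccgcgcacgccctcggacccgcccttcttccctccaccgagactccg
Psmb10, chr19:50743293-50743542, minus strand: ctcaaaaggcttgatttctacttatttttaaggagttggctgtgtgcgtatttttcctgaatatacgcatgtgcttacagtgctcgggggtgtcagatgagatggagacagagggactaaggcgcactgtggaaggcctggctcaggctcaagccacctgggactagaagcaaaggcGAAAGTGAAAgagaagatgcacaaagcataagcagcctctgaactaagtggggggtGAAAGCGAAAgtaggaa
The next 2 belong to the constitutive catalytic subunits that Psmb8 and Psmb10 replace, Psmb5 with an ARE match and Psmb7 with CCAAT boxes on both strands.
Psmb5, chr15:32047380-32047629, minus strand: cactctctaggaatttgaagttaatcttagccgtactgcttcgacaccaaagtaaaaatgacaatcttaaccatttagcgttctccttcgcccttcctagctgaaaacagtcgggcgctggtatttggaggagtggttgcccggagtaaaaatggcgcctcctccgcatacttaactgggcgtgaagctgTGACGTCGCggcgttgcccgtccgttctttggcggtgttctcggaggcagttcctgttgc
Psmb7, chr3:42827471-42827720, minus strand: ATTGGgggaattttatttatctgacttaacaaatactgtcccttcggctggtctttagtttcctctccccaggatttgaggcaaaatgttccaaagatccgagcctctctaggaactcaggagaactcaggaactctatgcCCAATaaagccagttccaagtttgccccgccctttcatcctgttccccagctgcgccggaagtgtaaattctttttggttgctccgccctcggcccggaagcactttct
The last 3 are 30 bases around a match, the ISRE of Psme2, the GAS of Psmb8 and the ARE of Psmb6.
Psme2, chr15:33052785-33052814, minus strand: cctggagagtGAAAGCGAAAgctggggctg
Psmb8, chr20:4657252-4657281, minus strand: agctgTTCCCAGAAgatgcccctcgccccg
Psmb6, chr10:55737854-55737883, plus strand: ctaaagagagTGACGGAGCgctttacgacc

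An ISRE match was present before 4 of the 35 members (11.4%) and before 3.29% of all 27457 promoters in the table. Those 4 were Psme2 among the inducible genes and Psma4, Psmb3 and Psmd7 among the constitutive ones. A GAS match stood before 4 members (11.4%, against 7.52% of all), namely Psmb8, Psmc6, Psmd3 and Psmd7. An ARE match stood before 6 members (17.1%, against 10.2%), among them Psmb2, Psmb5 and Psmb6, and before none of the 4 inducible members. A CCAAT box was the most common of the motifs, before 19 members (54.3%, against 34.3% of all). In Psmb2 the ARE and a CCAAT box shared 1 base. A match says only that these letters are present, and no match to any of the 4 was found for Psme1 or Psmb9.

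At day 7, proteasome genes had nearly the same signal in sprouting and non-sprouting neurons. The median log2 ratio of the 39 genes was 0.028, against -0.0022 for all features, and the genes ran from -0.19 for Psmd12 to 0.18 for Psme2. Of the 39, 24 were above 0 (61.5%, against 48.7% of all features). None passed an adjusted p of 0.05 in limma, where 0% of the 31072 features did, and the lowest adjusted p of a member was 0.778. At an unadjusted limma p under 0.05 there were 4 members, Psmb6 and Psmd9 higher and Psmb7 and Psmd12 lower, which is 4 of 39 beside 6.18% of all features (3.44% higher and 2.74% lower). That count was 1 without replicate 1 (Psmd12, beside 4.65% of all features), 2 without replicate 3 (Psmb6 and Psmd12, beside 5.70%) and 0 without replicate 5 (beside 5.35%). Without replicate 2 it was 3, Psma5, Psmb7 and Psmd12 (5.66%), and without replicate 4 it stayed at 4 (5.57%). Both days share 1 estimate of the spread, so day 21 animals also bear on it. The count stayed at 4 without day 21 replicate 1 (5.51%), 2 (5.62%) or 3 (5.86%). It was 5 without day 21 replicate 4, where Psmd7 joined (7.17%), and 5 without day 21 replicate 5, where Psma5 joined (8.33%). The 95% interval lay within 0.25 of 0, a 1.19-fold difference, for 20 of the 39 genes (65.6% of all features), within 0.5 for 38 (93.1%) and within 1, a 2-fold difference, for all 39 (99.3%).

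At day 21 the proteasome genes were again close to equal in both pools. The median ratio was 0.0072, against 0.0001 for all features, 21 of 39 genes were above 0 (53.8%, against 50.1%), and the range was -0.11 for Psmc1 to 0.17 for Psmd14. No member passed an adjusted p of 0.05 in limma (0% of all features), with a lowest adjusted p of 0.914, and none had an unadjusted p under 0.05, which 4.81% of all features had (1.90% higher and 2.91% lower). The interval lay within 0.25 of 0 for 25 of the 39 genes (66.7% of all features), within 0.5 for 38 (93.6%) and within 1 for all 39 (99.5%). The gene outside 0.5 on both days was Psmd14. Its day 7 animals ran from -0.30 to 0.12 (SD 0.19, n = 5), and its day 7 interval also carries the spread of the day 21 animals. The day 7 SE was 0.22, and 0.077 without day 21 replicate 5. Psmd14 encodes the deubiquitinase of the 19S cap.

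**Figure D1:**
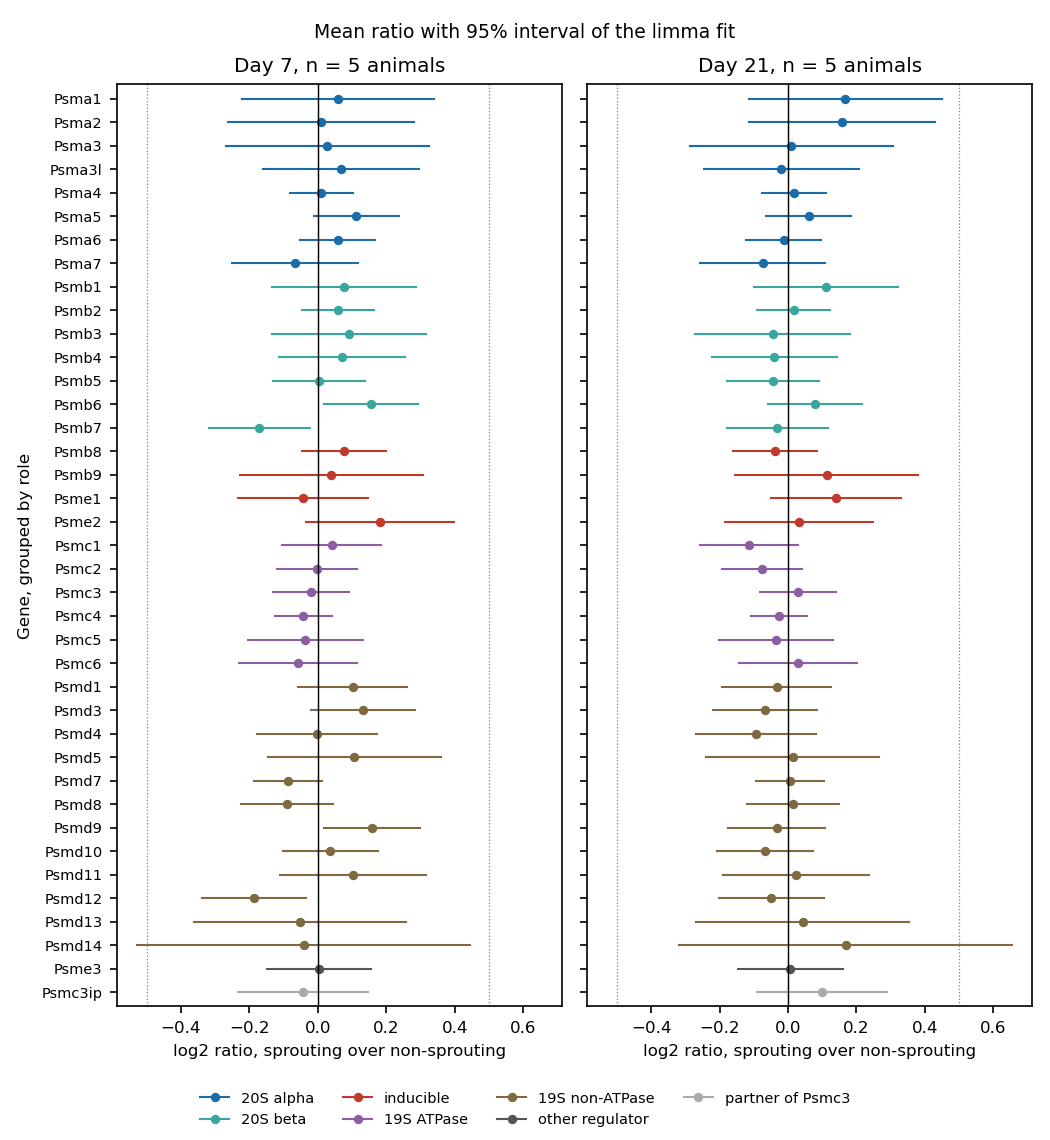
Log2 ratio of sprouting over non-sprouting neurons (x axis) for each of the 39 genes (y axis, coloured by role) at day 7 (left) and day 21 (right). Points are means over 5 animals, lines are 95% intervals of the limma fit and dotted lines mark 0.5 either side of 0. At day 7, 4 intervals leave out 0 (Psmb6, Psmb7, Psmd9 and Psmd12), and at day 21 none does.

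The alpha subunits of the 20S core form the outer rings and the gate. The median of the 8 alpha genes at day 7 was 0.043, 7 of them were above 0, and none had an unadjusted p under 0.05. Psma5, an alpha ring subunit, was the highest, at 0.12, -0.0099, 0.12, 0.20 and 0.12 in replicates 1 to 5, a mean of 0.11 ± 0.076 (SD, n = 5). Its ratio came from one orientation of the dyes, 0.22 in the forward mean and 0.0057 in the dye-swap mean (limma, adjusted p = 0.825). For Psma6 the forward mean was 0.17 and the dye-swap mean -0.051. Psma7 was the lowest alpha gene, -0.067 ± 0.26 (SD, n = 5). Replicate 2 was low at -0.52 and the other animals lay between -0.015 and 0.17.

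At day 21, 5 of the 8 alpha genes were above 0, with a median of 0.014 and no unadjusted p under 0.05. Psma1 had -0.068, 0.019, 0.019, -0.083 and 0.95 in replicates 1 to 5, a mean of 0.17 ± 0.44 (SD, n = 5). Psma2 had -0.019, 0.045, -0.056, -0.054 and 0.87, a mean of 0.16 ± 0.40 (SD, n = 5). For both genes replicates 1 to 4 lay close to 0, between -0.083 and 0.045, and replicate 5 alone was high. Without replicate 5 their day 21 ratios were -0.028 and -0.021, on the other side of 0. Psma3 behaved likewise, with -0.24, -0.052, -0.20, -0.26 and 0.80, and so did Psma3l, with -0.17, -0.038, -0.24, -0.20 and 0.55. Both probes were below 0 in 4 of 5 animals and high in replicate 5. Without that animal Psma3 had -0.19 and Psma3l -0.16, with limma adjusted p of 0.641 and 0.648 and unadjusted p of 0.0125 and 0.0196. Psma4 stayed between -0.13 and 0.11 in all 10 animals, the narrowest range of the alpha genes.

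Among the 7 constitutive beta genes, 6 were above 0 at day 7 with a median of 0.07, and 3 at day 21 with a median of -0.032. The catalytic subunits Psmb5, Psmb6 and Psmb7 did not move together. Psmb6, which carries the caspase-like site, had 0.26, 0.37, 0.0079, 0.011 and 0.13 at day 7, a mean of 0.16 ± 0.16 (SD, n = 5). It was above 0 in all 5 animals, the only member that was, and on 8 of 10 arrays. The forward mean was 0.25 and the dye-swap mean 0.058 (limma, unadjusted p = 0.0306, adjusted p = 0.797). Psmb7, which carries the trypsin-like site, went the other way at day 7, with -0.35, -0.064, -0.16, -0.099 and -0.18. Its mean was -0.17 ± 0.11 (SD, n = 5), below 0 in all 5 animals and above 0 on 1 of 10 arrays (limma, unadjusted p = 0.0273, adjusted p = 0.788). Psmb5, which carries the chymotrypsin-like site, had 0.091, 0.089, -0.053, -0.047 and -0.061, a mean of 0.0038 ± 0.079 (SD, n = 5).

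At day 21 the signs of Psmb6 and Psmb7 were no longer shared by the animals. Psmb6 had -0.052, 0.062, 0.14, -0.018 and 0.26, a mean of 0.08 ± 0.13 (SD, n = 5). Psmb7 had -0.18, -0.20, -0.10, 0.23 and 0.097, a mean of -0.032 ± 0.19 (SD, n = 5). The difference of Psmb7 between days was 0.14 with an SE of 0.094 (limma, adjusted p = 0.918). With scan batch as a fixed block it was -0.0445, which rests on day 21 replicate 1 against day 7 replicates 4 and 5 alone. Over both days Psmb6 had a ratio of 0.12 (SE 0.044) and Psmb7 of -0.10 (SE 0.047), and the limma adjusted p was 0.755 for each. The non-catalytic beta genes Psmb1, Psmb2, Psmb3 and Psmb4 had day 7 means of 0.059 to 0.09. In Psmb3 that mean rested on replicate 2, at 0.48, while the other animals had -0.11 to 0.046.

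**Figure D2:**
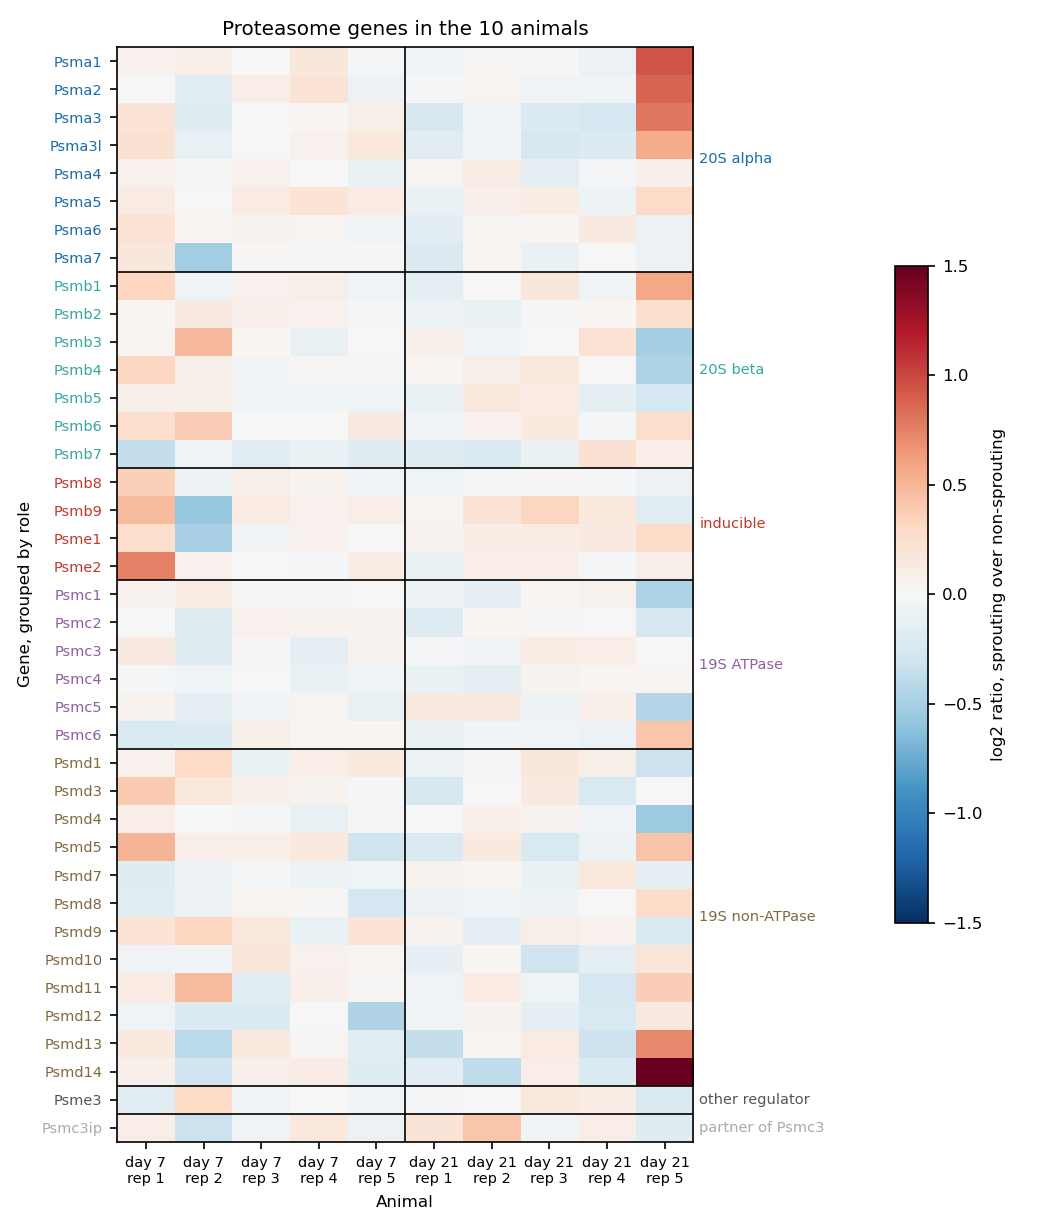
Log2 ratio of sprouting over non-sprouting neurons (colour, red for higher in sprouting neurons) for the 39 genes (rows, grouped by role) in the 10 animals (columns). Most cells are near 0, while day 21 replicate 5 holds both the highest (Psmd14, 1.49) and low values (Psmd4, -0.54). In day 7 replicate 1 the inducible genes are high (0.27 to 0.75), as is Psmd5 (0.51). In day 7 replicate 2 Psmb9 (-0.57), Psme1 (-0.49) and Psma7 (-0.52) are low and Psmb3 (0.48) is high.

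The inducible genes, Psmb8, Psmb9, Psme1 and Psme2, had a median of 0.057 at day 7 and 0.072 at day 21, with 3 of 4 above 0 on each day and all 4 above 0 over both days. None had an unadjusted p under 0.05 on either day. Psme2, the beta subunit of the activator cap, had the highest day 7 ratio of all members, 0.18 ± 0.32 (SD, n = 5). It had 0.75 in replicate 1 and 0.064, -0.0047, -0.014 and 0.11 in replicates 2 to 5, so 1 animal stood above the other 4. Psmb9, which takes the place of Psmb6 in the immunoproteasome, had 0.48, -0.57, 0.12, 0.066 and 0.10, a mean of 0.039 ± 0.38 (SD, n = 5), with animals at both extremes. Psme1, the alpha subunit of the activator cap, had 0.27, -0.49, -0.05, 0.059 and 0.0024, a mean of -0.043 ± 0.28 (SD, n = 5). Psmb8, which takes the place of Psmb5, had 0.36, -0.078, 0.085, 0.056 and -0.043, a mean of 0.075 ± 0.17 (SD, n = 5).

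The median of the 4 inducible genes was 0.42 in day 7 replicate 1, -0.28 in day 7 replicate 2 and between -0.011 and 0.11 in the other 8 animals. Replicate 1 was high for each of the 4, and Psmb10, outside the symbol rule, had 0.42 there. The median of the constitutive genes in that animal was 0.073. In the same animal the macrophage genes Lyz2, Cd14 and Trem2, which encode lysozyme, an endotoxin receptor and a lipid receptor, had ratios of 4.21, 2.98 and 2.00. The 15 microglia and macrophage markers had a median of 0.11 there, with 9 of 15 above 0, the fractalkine receptor gene Cx3cr1 of microglia had -0.36, and the 7 blood cell markers had a median of 0.66. Among the other 9 animals Lyz2 was also high in day 7 replicate 4, at 1.36, where the inducible median was 0.057. Without replicate 1 the ratio of Psme2 over both days was 0.035 in place of 0.11, and its day 7 ratio 0.038 in place of 0.18. The part of other cells in the inducible ratios was not tested.

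Day 7 replicate 2 was the low animal. Psmb9 and Psme1 were low there while Psme2 and Psmb8 were near 0, so the inducible genes did not move as a block. In that animal all 10 oligodendrocyte markers were below 0, with a median of -0.56 and -1.56 for the myelin gene Mbp. The 9 astrocyte markers had a median of 0.0076 there, with 5 of 9 above 0, and ran from -1.27 for Gfap to 0.48 for Slc1a2. In the same animal 3 of 15 microglia and macrophage markers were above 0, and 4 of the 27 interferon and antigen presentation genes were above 0, with a median of -0.20. The 10 neuron markers had a median of 0.098 there. The part of oligodendrocytes, microglia and macrophages in the low ratios of Psmb9 and Psme1 was not tested.

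At day 21 Psme1 had 0.05, 0.11, 0.11, 0.14 and 0.29, above 0 in all 5 animals, with a mean of 0.14 ± 0.091 (SD, n = 5). It was the only member with 1 sign in the 5 animals, as were 6.26% of all features, and its limma adjusted p was 0.914. Its forward mean was 0.055 and its dye-swap mean 0.23. In replicate 1 its arrays had opposite signs, -0.068 forward and 0.17 on the dye swap. The difference of Psme1 between the days was 0.18 with an SE of 0.12 (limma, adjusted p = 0.918). With scan batch as a fixed block it was 0.019, from day 21 replicate 1 and day 7 replicates 4 and 5 alone. Psmb9 had 0.041, 0.21, 0.32, 0.15 and -0.17, a mean of 0.11 ± 0.19 (SD, n = 5). It was above 0 in replicates 1 to 4 and below 0 in replicate 5. Psmb8, averaged over both arrays, was close to 0 in every day 21 animal, -0.092 to 0.018, a mean of -0.038 ± 0.042 (SD, n = 5). Its readings differed by dye, with a forward mean of 0.14 and a dye-swap mean of -0.22. Psme2 had -0.11, 0.10, 0.099, -0.027 and 0.091. Side by side, the constitutive Psmb5, Psmb6 and Psmb7 had day 21 means of -0.044, 0.08 and -0.032, and their inducible counterparts Psmb8, Psmb9 and Psmb10 had -0.038, 0.11 and 0.032.

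**Figure D3:**
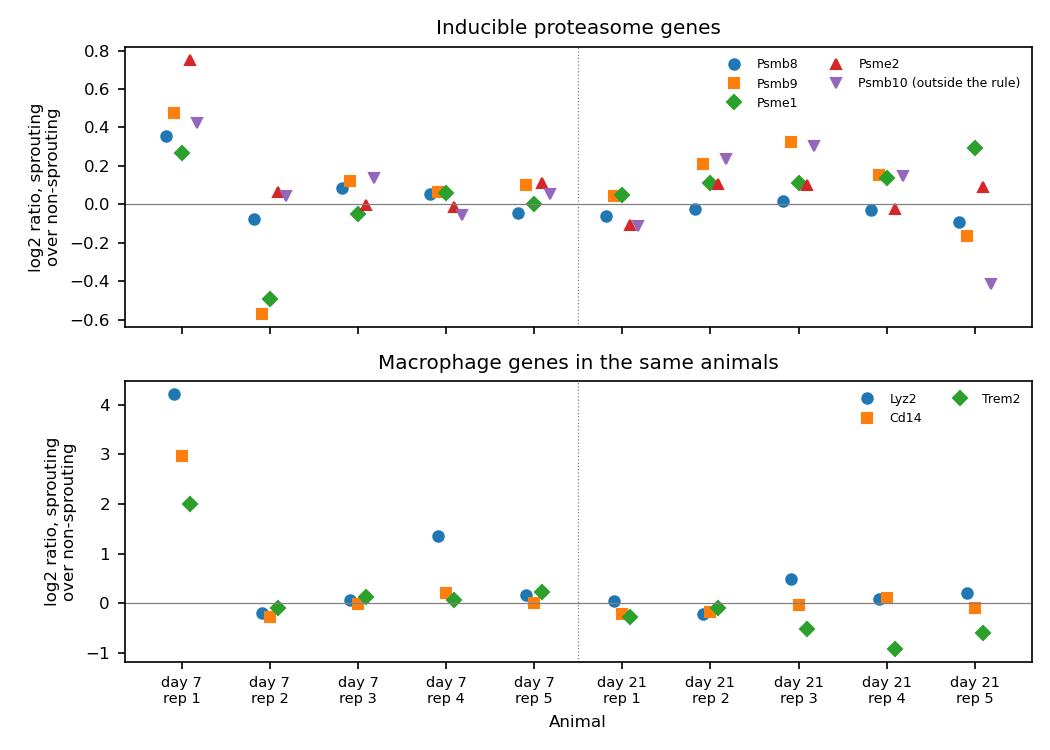
Log2 ratio of sprouting over non-sprouting neurons (y axes) of the inducible proteasome genes (top) and of 3 macrophage genes (bottom) in each of the 10 animals (x axis); points are animals. Day 7 replicate 1 is highest for Psmb8, Psmb9, Psme2 and Psmb10 and for Lyz2, Cd14 and Trem2, and Psmb9 and Psme1 are lowest in day 7 replicate 2. In day 7 replicate 1 all 15 microglia and macrophage markers together had a median of 0.11, with 9 above 0.

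The 19S ATPases, Psmc1 to Psmc6, thread the substrate into the core. At day 7 their means ran from -0.058 for Psmc6 to 0.04 for Psmc1, with 5 of 6 below 0 and a median of -0.028, and at day 21 from -0.11 for Psmc1 to 0.03 for Psmc3, with 4 of 6 below 0 and a median of -0.031. None had an unadjusted p under 0.05 on either day. Psmc1 had the smallest p of all members at day 21, from -0.072, -0.13, 0.034, 0.055 and -0.46, a mean of -0.11 ± 0.21 (limma, adjusted p = 0.914). Without replicate 5 its ratio was -0.028. Psmc2 had -0.19, 0.027, 0.021, 0.0035 and -0.24 at day 21, low in 2 animals and at most 0.027 in the rest. Psmc4 stayed between -0.14 and 0.058 in all 10 animals. Psmc5, with 3 saturated arrays, had opposite signs on the arrays of day 7 replicate 1, -0.29 forward and 0.39 on the dye swap.

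The 12 non-ATPase genes named for the 19S cap include assembly chaperones such as Psmd5 and Psmd9. They split evenly on both days, 6 above and 6 below 0, with medians of 0.017 at day 7 and -0.014 at day 21. Psmd12, a scaffold subunit of the lid, had the lowest day 7 ratio of all members. It had -0.059, -0.21, -0.20, -0.0089 and -0.46, a mean of -0.19 ± 0.17 (SD, n = 5), below 0 in all 5 animals and on all 10 arrays. The forward mean was -0.16 and the dye-swap mean -0.21 (limma, unadjusted p = 0.0209, adjusted p = 0.778). At day 21 it had -0.062, 0.056, -0.15, -0.23 and 0.14, a mean of -0.049 ± 0.15 (SD, n = 5). Psmd9, a chaperone of 19S assembly, had day 7 ratios of 0.21, 0.32, 0.15, -0.096 and 0.20, a mean of 0.16 ± 0.15 (SD, n = 5), with a forward mean of 0.14 and a dye-swap mean of 0.18 (limma, unadjusted p = 0.0312, adjusted p = 0.798). At day 21 Psmd9 had a mean of -0.033 ± 0.14, and its difference between days, -0.19 with an SE of 0.09, had the smallest p of the members for that comparison (limma, unadjusted p = 0.0578, adjusted p = 0.918). With scan batch as a fixed block that difference was -0.0067, from day 21 replicate 1 and day 7 replicates 4 and 5 alone.

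Psmd7, the partner of the deubiquitinase Psmd14, was below 0 in all 5 animals at day 7, with -0.19, -0.074, -0.029, -0.074 and -0.067. Its mean of -0.086 ± 0.059 (SD, n = 5) was small, and 2 other Psmd7 probes had day 7 means of 0.0036 and -0.07. At day 7 the smallest exact two-sided sign-flip p that 5 animals allow is 0.0625. With Psmb6, Psmb7 and Psmd12 this made 4 members of 1 sign in the 5 day 7 animals, 1 higher and 3 lower, beside 11.1% of all features. Psmd3, a lid subunit, had 0.39, 0.16, 0.078, 0.047 and -0.021 at day 7. Its day 21 values were -0.24, -0.0032, 0.14, -0.23 and -0.0052. The day 7 animals lay mostly above the day 21 animals but overlapped them (difference -0.20, SE 0.097, limma adjusted p = 0.918). Psmd5, an assembly chaperone, ranged from -0.30 to 0.51 at day 7 and from -0.23 to 0.43 at day 21, so both days spanned 0. Psme3, which forms a nuclear activator of the core, had means of 0.0035 ± 0.18 and 0.0072 ± 0.14 on the 2 days.

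Psmd14 and Psmd4 had the widest contrast within 1 animal. Psmd14 had -0.16, -0.38, 0.095, -0.21 and 1.49 at day 21, and its mean of 0.17 ± 0.76 (SD, n = 5) came from replicate 5 alone. The reading was alike on both of that animal's arrays, 1.46 and 1.52. Psmd4, a ubiquitin receptor of the cap, had -0.0049, 0.081, 0.054, -0.058 and -0.54, again near 0 in 4 animals, and -0.60 and -0.48 on the arrays of replicate 5. Psmd13, a lid subunit, had -0.35, 0.032, 0.13, -0.31 and 0.72. The members thus took opposite signs in that animal.

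In day 21 replicate 5 the SD across the 39 genes was 0.448, against 0.0846 to 0.251 in the other 9 animals. More than 0.25 from 0 were 21 genes (53.8%), beside 24.5% of all features in that animal, and the SD of its 4444 features with a mean log2 signal above 10 was 0.586. The forward and dye-swap ratios across the members had a correlation of 0.959 there, over 39 genes that share the same RNA pools, and 33 of 39 had the same sign on both arrays. By contrast the correlation was 0.116 in day 7 replicate 3, where no member passed 0.25. High in day 21 replicate 5 were Psma1, Psma2, Psma3, Psma3l, Psmb1 and Psmd13 besides Psmd14, and low were Psmb3, Psmb4, Psmc1 and Psmc5 besides Psmd4. Of the 6 further probes of members, 4 had the same sign as the chosen probe on each day, and they did not always repeat the reading in that animal. Psmc6 had 0.41 and 0.73 and Psmd1 had -0.33 and -0.49, but the 3 probes of Psmd7 had -0.12, -0.33 and 0.26 and those of Psma6 -0.091 and 0.13. The neuron markers had a median of -0.51 in that animal, with 4 of 10 above 0. They ran from -2.03 for Syt1 to 1.94 for Snap25, with -0.63 for Rbfox3, which encodes a neuronal splicing factor. The part of neuron content in the member ratios was not tested. Without that animal the day 21 ratios of 19 of the 39 genes changed sign, as did those of 19% of all features, among them Psmd14 from 0.17 to -0.16, Psmd13 from 0.043 to -0.13, Psmb1 from 0.11 to -0.0086 and Psma3 from 0.0098 to -0.19. Without that animal the day 21 median of the 39 genes was -0.021 in place of 0.0072, 3 members had an unadjusted limma p under 0.05 beside 7.23% of all features (Psma3, Psma3l and Psmd10), and the lowest adjusted p was 0.641.

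**Figure D4:**
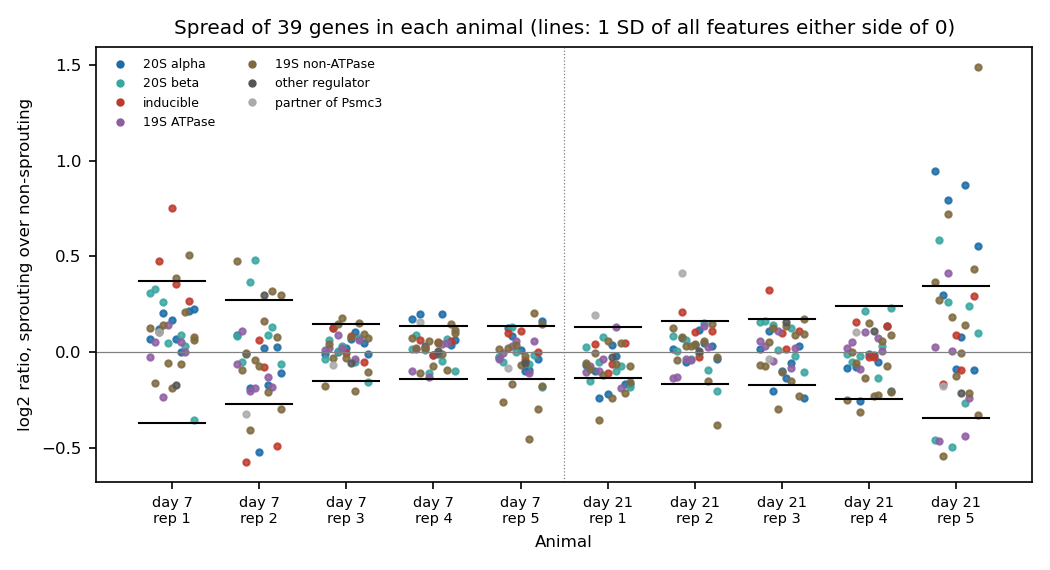
Log2 ratio of sprouting over non-sprouting neurons (y axis) of the 39 genes (points, coloured by role) in each of the 10 animals (x axis); black lines mark 1 SD of all features either side of 0. The points of day 21 replicate 5 spread furthest, with an SD of 0.448, and those of day 7 replicates 1 and 2 next, with 0.213 and 0.251.

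**Figure D5:**
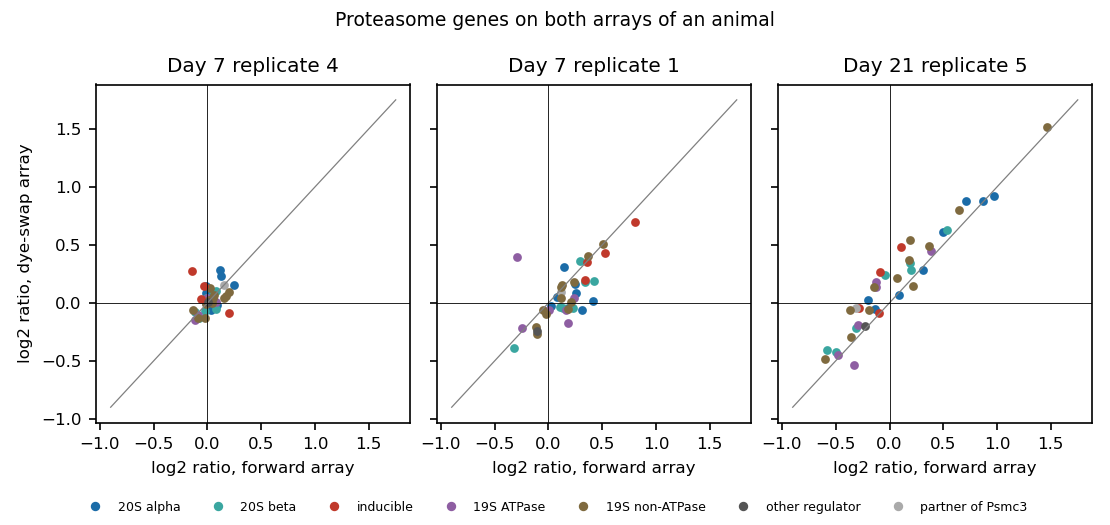
Log2 ratio of sprouting over non-sprouting neurons on the forward array (x axis) and on the dye-swap array (y axis, turned to the same direction) for the 39 genes (points, coloured by role) in 3 animals. Grey lines mark equal values. The correlation across genes was 0.356 in day 7 replicate 4, 0.706 in day 7 replicate 1 and 0.959 in day 21 replicate 5.

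Between the days, no member passed the test. The median difference, day 21 minus day 7, was -0.018, against -0.0009 for all features, and 18 of 39 genes were above 0 (46.2%, against 49.6%). None passed an adjusted p of 0.05 in limma (0% of all features), none had an unadjusted p under 0.05 (4.13% of all features, 1.70% higher and 2.44% lower), and for none did the animals of the days fail to overlap (0.953% of all features). The interval lay within 0.25 of 0 for 11 of the 39 genes (45.6% of all features), within 0.5 for 35 (83.3%) and within 1 for all 39 (97.6%). Of the inducible genes Psmb8 had a difference of -0.11 with an SE of 0.079, and of the ATPases Psmc1 had -0.15 with an SE of 0.091. The 4 genes outside 0.5 were Psma1, Psma2, Psmd13 and Psmd14. Over both days the median was 0.019, 25 of 39 were above 0, and again none passed an adjusted p of 0.05 (0%), with 2 members at an unadjusted limma p under 0.05, Psmb6 higher and Psmd12 lower (6.50% of all features, 3.34% higher and 3.16% lower). Next by p over both days were Psma5 with 0.087, Psmb7 with -0.10, Psme2 with 0.11 and Psmd9 with 0.062. No member had 1 sign in all 10 animals (0.470% of all features). The interval over both days lay within 0.25 of 0 for 34 genes (82.5% of all features), and within 0.5 (98.0%) and 1 (99.8%) for all 39.

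Animals were scanned in 5 batches by the times in the file headers, and only the third held animals of both days, day 7 replicates 4 and 5 and day 21 replicate 1. The median of the 39 genes in an animal ran from -0.054 to 0.10 at day 7 and from -0.072 to 0.079 at day 21, with 3 of 5 animals above 0 on each day. Within the third batch the day 7 medians were 0.034 and -0.022 and the day 21 median was -0.072. The other batches held 1 day each, so there batch and day cannot be told apart. A day difference with scan batch as a fixed block therefore compares only the 3 animals of the third batch.

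Genes that work with the proteasome were read from a list of 74, of which 64 were tested. The median ratio was -0.003 at day 7, where 31 of 64 were above 0, and 0.026 at day 21, where 42 of 64 were. None passed an adjusted p of 0.05 in limma on either day, and at an unadjusted p under 0.05 there were 3 higher and 1 lower at day 7 (beside 6.18% of all features) and 1 higher and 1 lower at day 21 (beside 4.81%). Ubb, which encodes polyubiquitin, had the smallest p of the list at day 7, a ratio of 0.52 ± 0.24 (SD, n = 5), above 0 in all 5 animals (limma, adjusted p = 0.467). Its spot was saturated on 18 of the 20 arrays and the forward mean was -0.13 against a dye-swap mean of 1.17. Rps27a, a ribosomal protein made as a fusion with ubiquitin, had 0.32 ± 0.20 (SD, n = 5), with 14 saturated arrays and a forward mean of -0.28 against 0.91 for the dye swap. Uba1, the main enzyme that activates ubiquitin, was on the low side with no saturated array, -0.12 ± 0.095 at day 7, below 0 in all 5 animals, and -0.17 ± 0.13 at day 21, above 0 in 1 animal (limma, adjusted p = 0.808 and 0.914). Over both days Uba1 had -0.14 with an SE of 0.036 (limma, adjusted p = 0.655). Ube2d1, a conjugating enzyme, had 0.16 ± 0.13 at day 21, above 0 in all 5 animals (limma, adjusted p = 0.914). Ube2e3, another conjugating enzyme, had 0.29 ± 0.45 there, with 1.07 in replicate 5 and a mean of 0.093 without it. The deubiquitinase gene Usp5 had -0.14 ± 0.28, with -0.63 in replicate 4 and a mean of -0.016 without it. Ubqln4, which encodes a shuttle that carries ubiquitinated proteins to the proteasome, had -0.087 ± 0.096 at day 7 and a difference between days of 0.14. The difference was 0.13 for Ube2d1, -0.37 for Ubb and -0.21 for Pomp, and over both days the ubiquitin ligase gene Ube3c had -0.064.

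Chaperones, which refold what the proteasome would otherwise remove, were also read, 19 of a list of 20. The median ratio was -0.034 at day 7, where 7 of 19 were above 0, and -0.013 at day 21, where 6 of 19 were. None passed an adjusted p of 0.05 in limma, with 2 higher and 2 lower at an unadjusted p under 0.05 at day 7 (beside 6.18% of all features) and 2 lower at day 21 (beside 4.81%). Hspa4, an exchange factor of the heat shock machinery, had -0.13 ± 0.083 at day 7, below 0 in all 5 animals. Hsp90b1, the chaperone of the endoplasmic reticulum, had -0.26 ± 0.33 at day 7 (-0.13 without replicate 2), above 0 in 1 animal, and -0.27 ± 0.19 at day 21, below 0 in all 5. Over both days it had -0.26 with an SE of 0.077 (limma, adjusted p = 0.683). Hspa9, the mitochondrial member of its family, had -0.14 ± 0.12 at day 21. Hspa8, the constitutive heat shock protein, had 0.18 ± 0.095 at day 7, with 8 saturated arrays, a forward mean of -0.12 and a dye-swap mean of 0.49. Hsp90aa1, a cytosolic chaperone, had 0.16 ± 0.19 at day 7, with 5 saturated arrays, a forward mean of 0.016 and a dye-swap mean of 0.30, and 0.088 without replicate 2. The highest of the rest by p at day 21 were small, 0.068 for Hspb8 and 0.02 for Hsf1. Between the days the difference was -0.19 for Hspa8, -0.17 for Hsp90aa1, 0.14 for Hspa4 and 0.10 for Hspb8.

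The inducible subunits serve antigen presentation, so 27 of a list of 33 interferon and antigen presentation genes were set beside them. The median ratio was -0.061 at day 7, where 9 of 27 were above 0, and -0.0056 at day 21, where 12 of 27 were. None passed an adjusted p of 0.05 in limma, with 1 higher and 1 lower at an unadjusted p under 0.05 at day 7 (beside 6.18% of all features) and 2 higher at day 21 (beside 4.81%). B2m, the light chain of MHC class I, had 0.038, 0.0045, 0.18, 0.32 and 0.94 at day 21, above 0 in all 5 animals (0.30 ± 0.38, 0.13 without replicate 5, limma adjusted p = 0.914). Gbp2, an interferon-induced GTPase, had -0.0002, 0.49, 0.49, 0.47 and 0.18 there (0.33 ± 0.23, limma adjusted p = 0.914). At day 7 Ifngr2, a subunit of the interferon gamma receptor, had 0.22 ± 0.19 above 0 in all 5 animals, and Stat2, a factor of interferon signalling, had -0.15 ± 0.13, above 0 in 1 animal (limma, adjusted p = 0.712 and 0.755). RT1-CE5, an MHC class I gene whose family members are near-identical and may share signal, had -0.22 ± 0.21 at day 7, below 0 in all 5 animals (-0.13 without replicate 2). At day 21 it had -0.11 ± 0.28 and the peptidase gene Erap1 -0.17 ± 0.21, or -0.017 and -0.096 without replicate 4. The difference between days was -0.22 for Ifngr2, -0.029 for Ifnar1, 0.19 for Mx2 and 0.51 for RT1-Da (SE 0.29, limma adjusted p = 0.918). RT1-Da ran from -0.67 to 1.02 in the day 21 animals. Its day 21 mean was 0.23, or 0.037 without replicate 3 and 0.46 without replicate 1. Over both days the ratio was 0.26 for Gbp2 and 0.22 for B2m, and -0.094 for Stat2 and -0.17 for RT1-CE5 (limma, adjusted p = 0.755 for each). Tap1 and Tap2, the transporter genes beside Psmb8 and Psmb9, had 0.22 and 0.19 in day 7 replicate 1 and -0.16 and -0.042 in day 7 replicate 2.

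Other proteasome genes were on the array under names the symbol rule does not catch, 9 genes with 10 probes. These were Psmb10, Psmd2, Psmd6, the assembly factors Psmg1, Psmg2, Psmg3 and Pomp, and the tissue-specific core subunits Psma8 and Psmb11. The 10 probes had day 7 means of -0.21 to 0.12 and day 21 means of -0.13 to 0.12. Psma8 was well above background in 0 of 20 sprouting and 1 of 20 non-sprouting channels, so its ratio was mostly of spots not well above background. Of the 10, 8 were among the 31072 features, and Psma8 and the second Psmd2 probe were added to the fit for this comparison. None passed an adjusted p of 0.05 in limma, and the lowest, 0.797, was that of the second Psmd2 probe. Psmb10 had 0.12 ± 0.18 at day 7 and 0.032 ± 0.30 at day 21, with -0.11, 0.24, 0.30, 0.15 and -0.42 in the day 21 animals. Its lowest value, like that of Psmb9 at day 21, was in replicate 5. The 2 probes of Psmd2, a scaffold of the 19S base, averaged -0.068 and -0.21 at day 7. In day 21 replicate 5 they read -0.38 and 0.28.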

How the data were processed

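The data were 20 two-colour Agilent arrays of 10 rats. Per the file headers, spot intensities were extracted by the authors with Agilent Feature Extraction 9.1.3.1, a program also named in the submitters' processing notes. The deposited log10 ratio per spot, red over green, is that program's own and was an alternative only. The authors' deposited table was read as log2 ratios. Its 20 columns that were mapped to arrays each matched their own array best (r 0.903 to 1), with medians of 0.00274 to 0.0152 and slopes of 0.873 to 1.68, so its exact scale and centring stay unknown, and 20 other columns were not used. No genome build is named in the files or labels used here.

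Mean signals were corrected with normexp (offset 50) and normalized by loess within each array in limma 3.58.1 with R 4.3.3. Control spots had no weight and outlier flags were left out. Ratios were turned to sprouting over non-sprouting and both arrays of a rat were averaged. The filter on dim probes asked that, in the channel of 1 cell type, 3 or more animals of 1 day had the probe well above background on each of their arrays, and 34225 of 41012 probes met it. Of each gene the probe of highest mean signal was used. Both days entered 1 limma fit with Benjamini-Hochberg adjustment over 31072 features at 0.05. Scripts were tested on simulated data. The number of arrays limits the precision. The p-values measure the spread between the 5 animals within each day, as 1 estimate per gene shared by both days. A p-value or interval of 1 day therefore also carries the spread of the other day. The day 7 SE of Psma1, for example, was 0.127, and 0.0386 without day 21 replicate 5.

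The members and gene lists were chosen with earlier results of these data known. All members were counted by class. Named with values were the 6 of smallest p in each comparison, the inducible genes with their constitutive partners, the highest and lowest of each class, and the 2 listed genes of smallest p in each direction. Other members were named for single animals after their values were seen. Members were named by the symbol in the files, and other genes also through RefSeq accessions and synonyms. Same-numbered animals of the 2 cohorts had correlations of -0.181 to 0.0379, so the numbers did not pair them. Alternatives covered the background correction, normalization, dim-probe filter, probe choice, saturated spots, dye orientation, arrays entered singly, scan batch, each day alone, a replicate block and leaving out each animal. Scan batch as a random block, and leaving out 3 animals together, were added after seeing the data.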

Additional observations from a re-analysis of the deposited data

Results flagged for a closer look

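In each group of 5 animals the highest and the lowest value were checked for a gap to the nearest other animal wider than Dixon's limit of 0.71 of the whole range. Of 82 groups checked, for 39 genes on 2 days and 4 medians, 13 had such a gap. Chance gives about 1 in 20 for a single group, but these groups share animals and RNA pools. The share over all features was not counted. All 13 were in 3 animals, 9 of them in day 21 replicate 5, 3 in day 7 replicate 2 and 1 in day 7 replicate 1. Over all features these animals also had the widest spread, with SDs of 0.345, 0.271 and 0.371.

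In day 21 replicate 5 the log2 ratio stood apart for the alpha genes Psma1 (0.9472), Psma2 (0.8748), Psma3 (0.7961) and Psma3l (0.5549), all high. It was also high for the 19S genes Psmc6 (0.4147), Psmd14 (1.4895) and Psmd8 (0.2737). It was low for the beta gene Psmb4 (-0.4594) and the ubiquitin receptor Psmd4 (-0.5413). In day 7 replicate 2 Psma7 (-0.5212) and Psmc2 (-0.1821) were low and Psmb3 (0.4817) was high. In day 7 replicate 1 the activator gene Psme2 (0.752) was high, where the other 4 animals had -0.014 to 0.1085.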

How the results depend on the processing

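Across 28 settings no member passed the adjusted p of 0.05 in any of 91 counts (lowest limma adjusted p 0.113), and for the 24 ratios of smallest p in a comparison 527 of 532 values kept their direction. The 5 that turned were Psma1 and Psma2 at day 21, at -0.0283 and -0.0208 without day 21 replicate 5 and at the same values without the 3 animals of widest spread, a setting added after seeing the data, and the day difference of Psmb7, at -0.0445 with scan batch as a fixed block. Of all 39 day 21 ratios, 19 turned without replicate 5 and at most 6 without any other animal. Leaving out 1 day 21 animal gave -0.0283 to 0.2292 for Psma1 and -0.0208 to 0.2119 for Psma2. With scan batch as a fixed block the median day difference was -0.0794 in place of -0.0181. Only the 3 animals of the third batch enter that comparison, for this median and for Psmb7. That block left the day 7, day 21 and two-day ratios without an estimate, so it was not run for them. Leaving out 1 animal gave medians of 0.005 to 0.0426 at day 7, -0.0208 to 0.0181 at day 21, -0.0358 to 0.0077 for the difference and 0.0042 to 0.0273 over both days. With the replicate number as a block the median was -0.0181 for the difference and 0.0188 over both days, and the block changed no call. Forward arrays alone gave a day 7 median of 0.045 and dye-swap arrays alone -0.0044. Amplified RNA from about 300 neurons and 5 animals per day limit what can be seen.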

Other observations

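Outside the symbol rule, Pomp, which encodes the chaperone of core assembly, had 0.12 ± 0.17 (SD, n = 5) at day 7 and -0.093 ± 0.25 at day 21, with 0.36 in day 7 replicate 1 and -0.52 in day 21 replicate 5. Psmd6, a lid subunit, had 0.73 in day 21 replicate 5 and -0.18 to 0.048 in the other day 21 animals. Psmg3, an assembly factor, was low in day 21 replicate 4, at -0.59, where the other day 21 animals had -0.10 to 0.091.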
